A study of Mus musculus with 4 samples.

Results

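The replication-dependent histone genes were measured in left ventricular tissue of KDM5B-knockout (KO) and wild-type (WT) mice at 7 days after myocardial infarction (MI). They were taken as all non-control probes whose gene name in the array files begins with Hist1h, Hist2h, Hist3h or Hist4h, which gave 45 probes for 38 gene names out of 41174 probes for 27376 gene names. Each value is the log2 signal of 1 probe after subtraction of the array's 75th percentile, so that a difference of 1 is a 2-fold change and a negative value lies below that percentile. Each 60-base probe binds with its own strength, so that a brighter probe does not mean a more abundant transcript, and signal is used only to order probes within the arrays.

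The study asked what loss of KDM5B, a demethylase of lysine 4 on histone H3, does to the infarcted heart. MI followed ligation of the left anterior descending artery in mice of 8 to 10 weeks of age, all labelled male. The KO mice carried a CRISPR/Cas9 deletion within the JmjC domain of Kdm5b that shifts the reading frame, present in every cell and not in one cell type, and the WT mice were littermates without it. Both groups had undergone MI, no sham-operated heart was analysed here, and RNA came from whole left ventricle, a mixture of muscle, stromal, vascular, blood and immune cells. Each group held 2 one-colour Agilent arrays, numbered 2 and 3 in the labels (WT 2, WT 3, KO 2 and KO 3), and the labels do not say how many hearts stand behind an array, so the spread between arrays may be partly technical.

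Histones package DNA. H2A, H2B, H3 and H4 form the nucleosome core, and H1 binds the linker DNA between nucleosomes. The replication-dependent genes lie in clusters, are transcribed mainly during S phase to package newly made DNA, have no introns as a rule, and end in a conserved stem-loop in place of a poly(A) tail. The stem-loop is bound by SLBP, and the mRNA is degraded when replication ends. Some of these genes also give polyadenylated transcripts, among them in cells that have left the cell cycle. The labelling kit used here primes cRNA synthesis from poly(A) tails, so the signal of a histone probe reports the RNA that such priming can reach and is no direct measure of the whole histone mRNA pool.

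The probe sequences show what each signal can and cannot resolve, because coding sequences of one class are nearly identical. In the 3 pairs below, capitals mark the longest run shared by the partners, which was 44 bases for the H2A pair, 52 bases for the H2B pair and 50 bases for the H4 pair.
Hist1h2aa (probe at chr13:24026659-24026718, + strand, mm9): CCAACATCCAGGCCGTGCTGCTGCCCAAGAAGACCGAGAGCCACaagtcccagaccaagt
Hist1h2af (probe at chr13:23626108-23626167, + strand, mm9): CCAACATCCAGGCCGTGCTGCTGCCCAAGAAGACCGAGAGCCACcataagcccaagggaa
Hist1h2bk (probe at chr13:22127928-22127987, + strand, mm9): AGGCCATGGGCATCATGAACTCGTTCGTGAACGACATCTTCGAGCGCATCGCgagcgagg
Hist1h2bm (probe at chr13:21814139-21814198, + strand, mm9): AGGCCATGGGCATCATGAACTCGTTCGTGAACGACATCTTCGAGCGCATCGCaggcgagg
Hist1h4d (probe at chr13:23673665-23673724, + strand, mm9): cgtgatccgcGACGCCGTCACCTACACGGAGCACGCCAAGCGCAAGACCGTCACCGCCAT
Hist1h4f (probe at chr13:23643249-23643308, - strand, mm9): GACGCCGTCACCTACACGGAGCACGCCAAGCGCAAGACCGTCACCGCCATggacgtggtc

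In the best ungapped alignment the Hist1h2bk and Hist1h2bm probes matched at 58 of 60 bases, and the probe of the pseudogene Hist3h2bb-ps matched that of Hist1h2bk at 55. The Hist1h2ai and Hist1h2ak probes, which both start at the first base of their targets, matched at 55. The files list more than 1 RefSeq transcript for 17 of the 45 probes and up to 4 for a single probe. Values of such probes are shared by several genes, so the counts below are counts of probes and not of independent genes. With 1 probe kept for each group sharing a run of at least 30 bases, 35 probes remained. Their median difference between KO and WT was 0.46, against 0.47 over all 40 tested. That rule still counted close probes separately, such as those of Hist1h2ai and Hist1h2ak, so it did not remove all shared sequence. The H1 genes are more divergent, and no H1 probe shared a run of at least 30 bases with another histone probe. The tested H1 probes with the largest differences between KO and WT, those of Hist1h1d and Hist1h1b, are shown whole below.
Hist1h1d (probe at chr13:23647452-23647511, + strand, mm9): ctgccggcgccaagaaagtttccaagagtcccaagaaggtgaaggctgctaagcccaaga
Hist1h1b (probe at chr13:21871923-21871982, - strand, mm9): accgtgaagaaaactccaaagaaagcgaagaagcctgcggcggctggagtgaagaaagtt

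Of the 45 probes, 3 held CTTTTCA, the loop-side letters of the histone stem-loop. This was a larger share than the 0.862% of all probes (355 of 41174, searched on the probe's own strand). Of these 3 probes, 30 bases are given, with the letters of the stem-loop in capitals. They differ in where they lie: the Hist1h2ab probe stops within the stem-loop, the Hist1h3a probe spans it, and the Hist1h2ae probe starts within it and runs past it.
Hist1h2ab (probe at chr13:23843392-23843451, + strand, mm9): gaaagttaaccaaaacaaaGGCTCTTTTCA
Hist1h3a (probe at chr13:23853756-23853815, - strand, mm9): aattaaccaaaGGCTCTTTTCAGAGCCaca
Hist1h2ae (probe at chr13:23662489-23662548, - strand, mm9): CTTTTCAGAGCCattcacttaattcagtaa

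The promoters share elements as well. A RefSeq promoter window of 300 bases, from 250 before to 50 after the annotated start, was available for 32 of the 38 RefSeq genes matched by the probes. The CCAAT box was found on either strand in 29 of these 32 genes (90.6%), and in 37.4% of all 32851 promoter entries. The exceptions were H4 genes, of which 2 of 5 (40.0%) held it, near the share of all entries. TATAAA stood in 20 of 32 (62.5%), against 13.6% of all entries. ATTTGCAT, the element known from H2B promoters, stood in 5 of 8 H2B genes and 6 of 11 H2A genes but in none of the 6 H1, 2 H3 and 5 H4 genes, against 1.74% of all entries. AAACACA, the element known from H1 promoters, stood in 5 of 6 H1 genes, against 7.18% of all entries. It also stood in 2 of 11 H2A genes (18.2%) and 2 of 8 H2B genes (25.0%), but in none of the H3 and H4 genes. These are letter matches, not binding sites. The 150 bases before the start are shown for the gene of each class with the largest difference among those whose KO arrays both lay above the WT arrays and whose promoter was in the table, with every match to the 4 motifs on either strand in capitals. No H3 gene met this rule.
Hist1h1d (RefSeq H1f3, chr13:23554882-23555031, + strand, GRCm38.p6): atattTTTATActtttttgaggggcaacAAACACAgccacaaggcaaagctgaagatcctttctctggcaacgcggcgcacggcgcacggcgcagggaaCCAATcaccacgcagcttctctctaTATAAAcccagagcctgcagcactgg
Hist1h2ab (RefSeq H2ac4, chr13:23750938-23751087, + strand, GRCm38.p6): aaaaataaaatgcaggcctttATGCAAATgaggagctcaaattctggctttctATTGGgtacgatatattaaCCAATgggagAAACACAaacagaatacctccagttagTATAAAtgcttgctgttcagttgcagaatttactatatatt
Hist1h2ba (RefSeq H2bc1, chr13:23934157-23934306, - strand, GRCm38.p6): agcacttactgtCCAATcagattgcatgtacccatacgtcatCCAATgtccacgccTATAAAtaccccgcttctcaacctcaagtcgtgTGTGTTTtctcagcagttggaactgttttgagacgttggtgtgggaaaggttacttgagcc
Hist1h4a (RefSeq H4c1, chr13:23761250-23761399, - strand, GRCm38.p6): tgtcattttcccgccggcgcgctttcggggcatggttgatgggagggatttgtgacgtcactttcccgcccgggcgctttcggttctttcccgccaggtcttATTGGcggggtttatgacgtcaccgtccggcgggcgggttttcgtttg

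All 4 arrays lay on 1 slide, the first and second positions holding WT and the last ones KO, so position and genotype cannot be told apart. The 75th percentile of the signal ranged from 607.6 on KO 2 to 976.1 on WT 3, and 68.15% to 72.04% of probes were well above background. The targeted gene was read by 2 Kdm5b probes. At the brighter one (chr1:136485365-136485424, mm9), the signal was -0.87 and -1.81 on WT 2 and WT 3 and -2.40 and -2.26 on KO 2 and KO 3. The KO arrays lay below the WT arrays by 1.0 (KO minus WT -1.0, SE 0.40, limma adjusted p = 0.9999), and neither probe fell below the background limit on a KO array. Whether either probe lies in the deleted part was not determined. Sex-linked probes went against a label. On WT 2 and KO 2, 4 of 4 Xist probes and 0 of 7 Y-linked probes exceeded the background limit, whereas on WT 3 and KO 3 it was 0 of 4 and 6 of 7. Array number thus ran with sex-linked signal, against the male label of the number 2 arrays, and each histone result is also given within number 2 and within number 3.

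Of the 45 histone probes, 37 were well above background on all 4 arrays, 3 on 3 arrays and 5 on none. Testing required a signal well above background on the 2 arrays of WT, of KO or of each, and 40 histone probes for 34 gene names were among the 28305 probes that met this. By mm9 position in the files, 31 of the 45 probes lay on chromosome 13, 7 on chromosome 3, 4 on chromosome 11 and 2 on chromosome 6, and the Hist1h2bp probe was unmapped. No exon or UTR annotation of mm9 was used.

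No histone probe passed the test for a difference between KO and WT. With limma and Benjamini-Hochberg adjustment over all probes, 0 of the 40 were called, which took an adjusted p under 0.05 at more than 2-fold, as did 0.0% of the tested probes (smallest adjusted p 0.9999 among histones). Without adjustment, 4 of 40 were higher in KO at a limma p under 0.05 (10.0%, against 0.685% of all tested probes) and 0 were lower (against 0.763%). A fold change over 2 was seen upward for 1 probe, Hist1h3a (2.5%, against 1.0%), and downward for 0 (against 2.35%). Hist1h3a, also 1 of the 4 above, entered the test through its KO arrays, being above background on 1 WT array only, and the count over 2-fold was 0 when all 4 arrays had to be above background, so nothing is read from it. With 2 arrays a group an exact two-sided permutation test cannot give a p under 0.333, so the values below describe these 4 arrays.

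The direction was largely shared among the histones, though not evenly over the classes. The mean of the KO arrays exceeded that of the WT arrays at 38 of 40 histone probes, against 14808 of all 28305 tested probes. The median difference of the histone probes was 0.47 (1.39-fold, range -0.38 to 1.23), against a median of 0.02 over all tested probes. The medians of the histone probes relative to their WT means were 0.01 and -0.01 for WT 2 and WT 3. They were 0.39 and 0.68 for KO 2 and KO 3. The SD of such array medians within a group, pooled, was 0.14. The 2 WT medians mirror each other by construction, and WT deviations of opposite sign cancel in a median over probes. For H2A alone the WT medians were 0.17 and -0.17, so this SD may understate the spread. The groups were separate, with the lower KO array above the higher WT array, at 28 of 40 probes (70.0%, against 13.1% of all tested probes), and 0 were separate in the other direction (against 10.9%). Less RNA per cell and fewer cells of a type cannot be told apart in bulk tissue, nor can their opposites here.

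**Figure D1:**
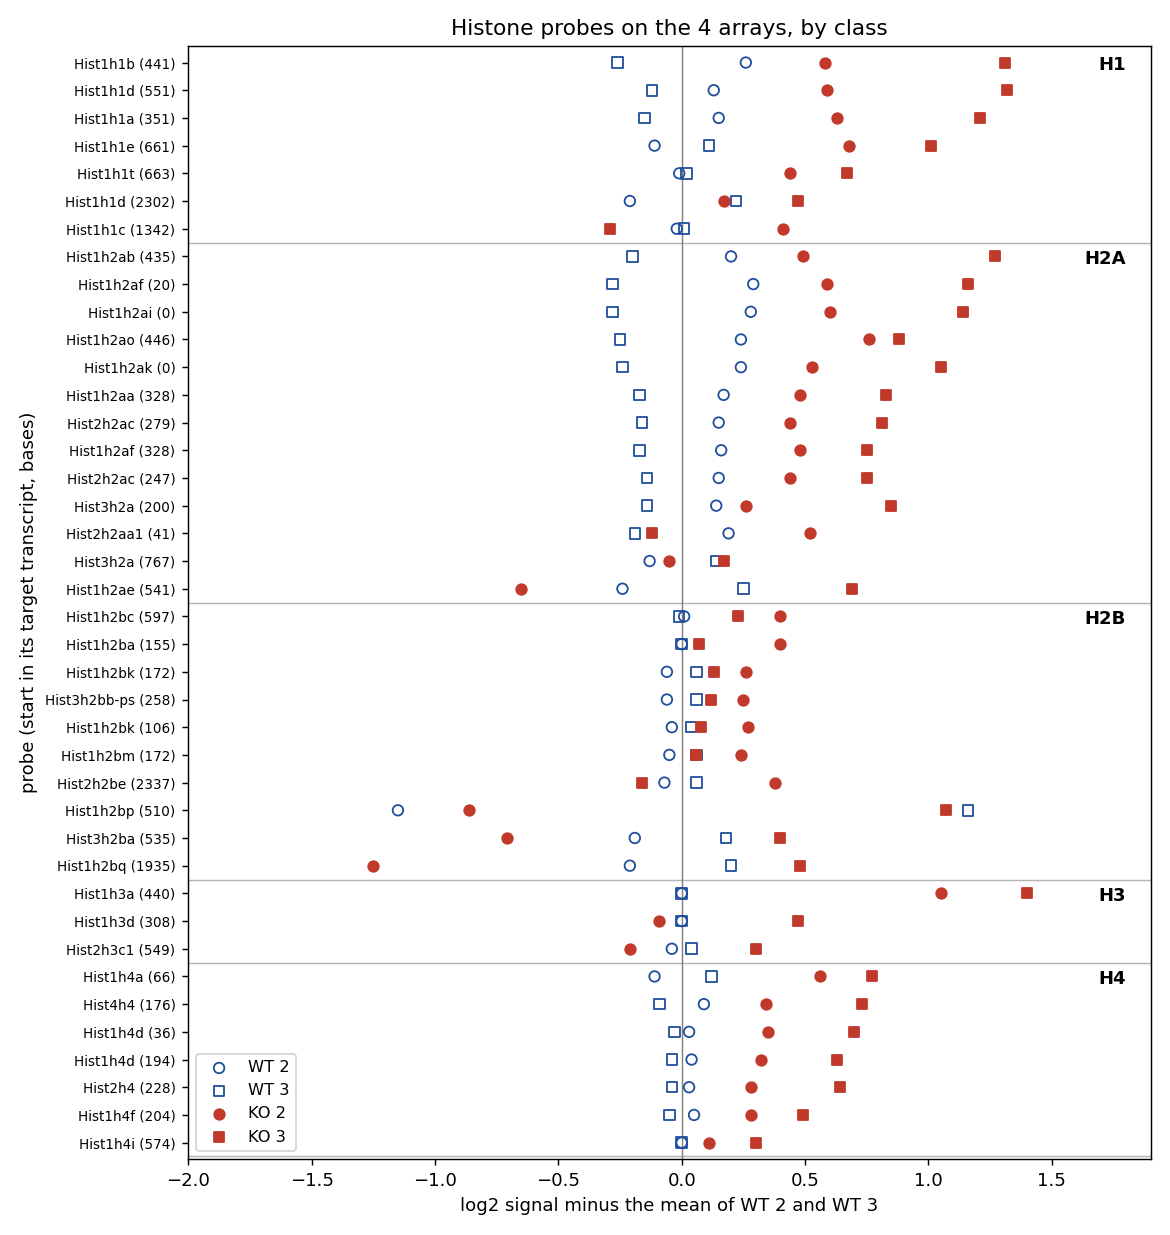
Log2 signal of the 40 tested histone probes on each array, relative to the mean of WT 2 and WT 3, with probes as rows in order of their difference within each class and the start of the probe in its target in parentheses. Open blue symbols are WT and filled red symbols KO, circles number 2 and squares number 3; at 28 probes both red symbols lie right of both blue ones, and KO 3 stands farthest right for most H1, H2A and H4 probes but not for most H2B probes.

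How far this held depended on the array number and on the scaling. Within number 2, 35 of 40 probes were higher in KO (against 51.1% of all tested probes), with a median difference of 0.31. Within number 3, 36 of 40 were higher (against 52.0%), with a median of 0.65. Number 3 changed little with the scaling, at 0.62 and 34 of 40 higher after quantile normalization. Number 2 did not hold as well: after quantile normalization its median was 0.14, with 27 of 40 higher, and the count with both KO arrays above both WT arrays dropped from 28 to 19, or 18 in the authors' own table of values, against 12.5% of all tested probes in each. Under normexp background correction the count was 30, but the same held for 30.1% of all tested probes and the median over all of them moved from 0.02 to 0.13.

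Over all tested probes, the median difference within number 2 was higher among bright probes than among the dimmest 10%, where it was -0.08. KO 2 had the lowest 75th percentile, and 20 of the 40 histone probes fell among the brightest 10% of all tested probes, where the median difference over all 2831 probes was 0.17 within number 2 and 0.06 within number 3. The part of signal strength in the histone values at number 2 was not tested.

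**Figure D2:**
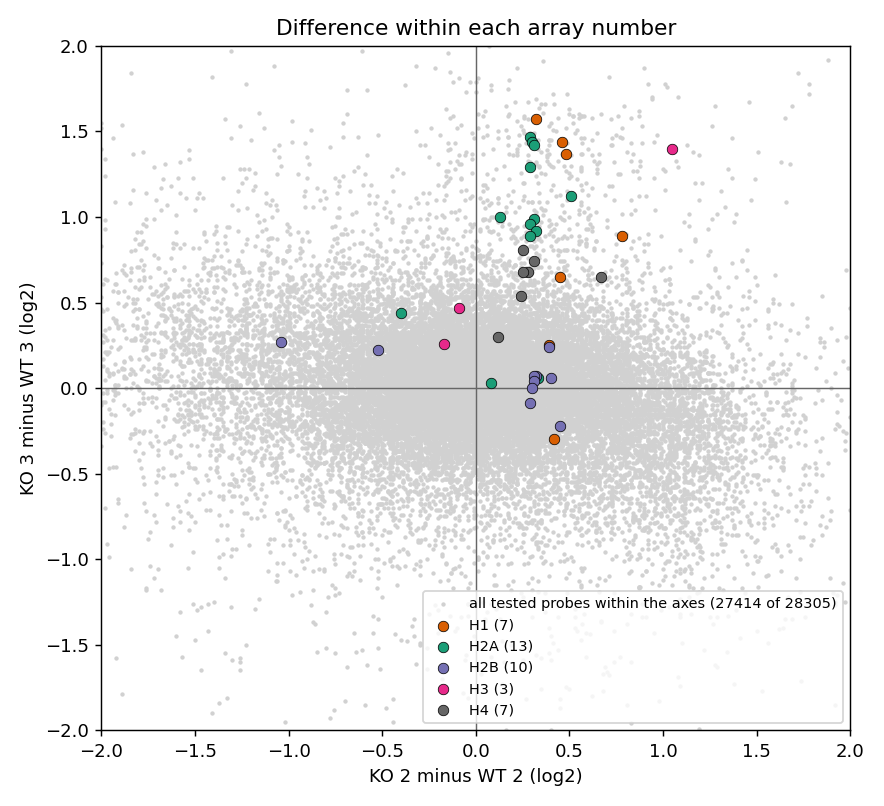
Difference between KO 2 and WT 2 (horizontal axis, log2) against that between KO 3 and WT 3 (vertical axis, log2) for 27414 of the 28305 tested probes in grey and the 40 histone probes coloured by class. Most H1, H2A and H4 probes sit at modest positive values within number 2 and higher ones within number 3, and most H2B probes sit near 0 within number 3.

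The linker histones H1 had a class median of 0.84 (1.79-fold, 7 probes), the highest of the 5 classes, at 0.45 within number 2 and 0.89 within number 3. The KO arrays stood above the WT arrays at 5 of the 7 probes (against 13.1% of all tested probes), and also at 5 after quantile normalization. The signal of Hist1h1d, at the near probe printed above, was -2.38 and -2.63 in WT 2 and WT 3 and -1.92 and -1.19 in KO 2 and KO 3, a difference of 0.95 (SE 0.35). Hist1h1b was at 0.40 and -0.12 in WT and at 0.72 and 1.45 in KO, a difference of 0.95 (SE 0.39). Hist1h1a was at -3.01 and -3.31 in WT and at -2.53 and -1.95 in KO, a difference of 0.92 (SE 0.31). In all 3 genes KO 3 was the highest array and WT 3 the lowest, and the groups did not overlap.

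Hist1h1e differed by 0.84 (SE 0.25), with 0.78 within number 2 and 0.89 within number 3, nearly the same size within each. Hist1h1t, the testis-type H1, was dim but well above background on all arrays and differed by 0.55. Hist1h1c went with none of these: its probe, at base 1342, read 3.76 and 3.79 in WT and 4.19 and 3.49 in KO. Its difference of 0.06 (SE 0.33) split into 0.42 within number 2 and -0.30 within number 3, the groups overlapped, and the mean difference was -0.08 after quantile normalization. The H1 median changed little with scaling, at 0.80 after quantile normalization.

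H2A was the largest class, with 13 tested probes and a median of 0.63 (1.54-fold). All 13 had a higher mean in KO and 10 had both KO arrays above both WT arrays (76.9%, against 13.1% of all tested probes). After quantile normalization, and in the authors' values, that count was 5 of 13 (against 12.5%). The signal of Hist1h2ab, whose probe ends inside the stem-loop, was 2.98 and 2.58 in WT and 3.27 and 4.05 in KO, a difference of 0.88 (SE 0.38). The brightest H2A probe, Hist1h2af at the probe printed above, read 6.35 and 6.02 in WT and 6.67 and 6.94 in KO, a difference of 0.62 (SE 0.25). At all 10 H2A probes without overlap, KO 3 was the highest array and WT 3 the lowest.

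Among those, Hist1h2ai, Hist1h2ak and the Hist1h2af probe at base 20 differed by 0.87, 0.79 and 0.87. Hist1h2ao differed by 0.82 (SE 0.27), with 0.51 within number 2 and 1.12 within number 3, at an unadjusted limma p of 0.0437 and an adjusted p of 0.9999. The testis-type Hist1h2aa differed by 0.65, close to the 0.62 of Hist1h2af, with whose probe it shares the 44-base run printed above, so its signal cannot be assigned to one of the genes. Both Hist2h2ac probes, at 0.59 and 0.63, and the near probe of Hist3h2a, at 0.56, lay lower. Within number 3 these 10 probes differed by 0.89 to 1.47, and within number 2 by only 0.13 to 0.51. The class median within number 2 was 0.29 but -0.03 after quantile normalization, with 6 of 13 probes higher, so that no direction within number 2 can be given for H2A, whereas within number 3 the medians were 0.99 and 0.93.

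The other 3 H2A probes overlapped. Hist1h2ae, whose probe runs past the stem-loop, was at -4.30 and -3.81 in WT and at -4.71 and -3.37 in KO, a difference of 0.02 (SE 0.56). KO 2 was its lowest array and KO 3 its highest. Hist2h2aa1 differed by 0.20, with 0.33 within number 2 and 0.06 within number 3, although its probe matched that of Hist1h2ai at 48 of 60 bases. The far probe of Hist3h2a differed by 0.06.

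H2B stood lower than the other core histones at number 3. The median of its 10 tested probes was 0.16 (1.12-fold), with 0.31 within number 2 and 0.07 within number 3, and after quantile normalization these were 0.08, 0.14 and 0.01. The KO arrays stood above the WT arrays at 5 of 10 (against 13.1% of all tested probes), or at 3 after quantile normalization (against 12.5%). The brightest probe, Hist1h2bc, read 3.97 and 3.95 in WT and 4.36 and 4.19 in KO, a difference of 0.32 (SE 0.21). Here KO 2 was the highest array, whereas KO 3 was the highest at the H1 and H2A probes without overlap. The other 4 without overlap were Hist1h2ba, a testis-type H2B at 0.23, both Hist1h2bk probes at 0.18 and 0.20, and Hist3h2bb-ps at 0.19, of which Hist3h2bb-ps and a Hist1h2bk probe share sequence.

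At Hist1h2bm, which differs from Hist1h2bk by few bases, the KO values were 3.88 and 3.70 against 3.59 and 3.70 in WT. Its difference of 0.15 came from number 2 alone, at 0.30, with -0.00 within number 3. Hist2h2be differed by 0.12, with 0.45 and -0.22 within the numbers. Hist1h2bp was above background on 3 arrays, all but WT 2, and read -5.49 and -3.18 in WT against -5.20 and -3.27 in KO, so that the array numbers differed by far more than the genotypes. Only 2 tested probes of all classes had a lower mean in KO, and both were H2B. They were Hist3h2ba at -0.15 (SE 0.47) and Hist1h2bq at -0.38 (SE 0.68), the second not well above background on KO 2. No difference between H2B and another class was tested, since the probes of a class share sequence and all come from the same arrays.

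H3 was measured by only 3 tested probes, whose differences ranged widely. Hist1h3a, whose probe spans the stem-loop, read -5.71 and -5.71 in WT and -4.66 and -4.31 in KO. It was the probe with the largest difference, 1.23 (2.34-fold, SE 0.24), at 1.05 within number 2 and 1.40 within number 3. It was also dim, measured above background on 1 of 2 WT arrays, and under normexp background correction the difference was 0.72. Hist1h3d was at 4.02 and 4.02 in WT and at 3.93 and 4.49 in KO, a difference of 0.19. The brightest H3 probe, Hist2h3c1, read 4.55 and 4.63 in WT and 4.38 and 4.89 in KO, a difference of 0.04 (SE 0.28) that was -0.13 after quantile normalization. For these last 2 probes KO 2 was the lowest array and KO 3 the highest.

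H4 was the most uniform class. All 7 tested probes had both KO arrays above both WT arrays (against 13.1% of all tested probes). Their differences were 0.21 to 0.66, with a median of 0.48 (1.39-fold), at 0.25 within number 2 and 0.68 within number 3. After quantile normalization 5 of the 7 kept the KO arrays above the WT arrays (against 12.5%) and the median was 0.32. The brightest, Hist1h4f, read 5.34 and 5.24 in WT and 5.57 and 5.78 in KO, a difference of 0.39 (SE 0.22). Hist1h4a differed by 0.66 (SE 0.23), with 0.67 within number 2 and 0.65 within number 3, the only H4 probe as far apart within number 2 as within number 3. Hist1h4d, by 2 probes, differed by 0.52 and 0.48, Hist2h4 by 0.46, the near probe of Hist4h4 by 0.53 and Hist1h4i, whose probe starts at base 574, by 0.21.

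Position in the transcript went with the size of the difference. The 35 probes that start within the first 700 bases of their target were all tested and had a median difference of 0.53. Of these, 34 were higher in KO and 28 lay above WT without overlap (against 13.1% of all tested probes). Of the 10 that start farther along, 5 were not well above background on any array and the 5 tested had a median of 0.06, with none free of overlap. For 6 of these 10 the start lies beyond the whole length of the RefSeq gene, so that they read sequence downstream of the annotated end. The same holds within 700 bases for the probes of Hist3h2ba (start 535, gene length 462) and Hist1h4i (start 574, gene length 403). The split at 700 bases was made after the values were seen and is a description. The nearest probes inside it were Hist1h1e at base 661 (0.84) and Hist1h1t at base 663 (0.55), and the nearest outside was Hist3h2a at base 767 (0.06). The probes at bases 510 to 574 were mixed. Those of Hist1h2bp, Hist3h2ba, Hist1h2ae, Hist2h3c1 and Hist1h4i were at -0.15 to 0.21, but that of Hist1h1d at base 551 was at 0.95.

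Genes with a near and a far probe allowed a comparison within a gene. For Hist1h1d the near probe differed by 0.95, and the probe at base 2302 read -3.88 and -3.45 in WT and -3.50 and -3.20 in KO, a difference of 0.32 (SE 0.28) with overlap. For Hist3h2a the probe at base 200 read 3.28 and 3.0 in WT and 3.40 and 3.99 in KO, and the probe at base 767 read 2.29 and 2.56 in WT and 2.37 and 2.59 in KO. The means differed by 0.56 (SE 0.31) at the near probe, where the groups did not overlap, and by 0.06 (SE 0.24) at the far probe. For Hist4h4 the probe at base 176 differed by 0.53 (SE 0.26) and that at base 1788 was not well above background on any array. The other probes not well above background were those of Hist1h2ac, Hist1h2al, Hist1h2be and Hist2h2bb, which start at bases 2194, 2941, 2039 and 1340, so that their differences, plotted only for completeness, lie within the background signal.

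**Figure D3:**
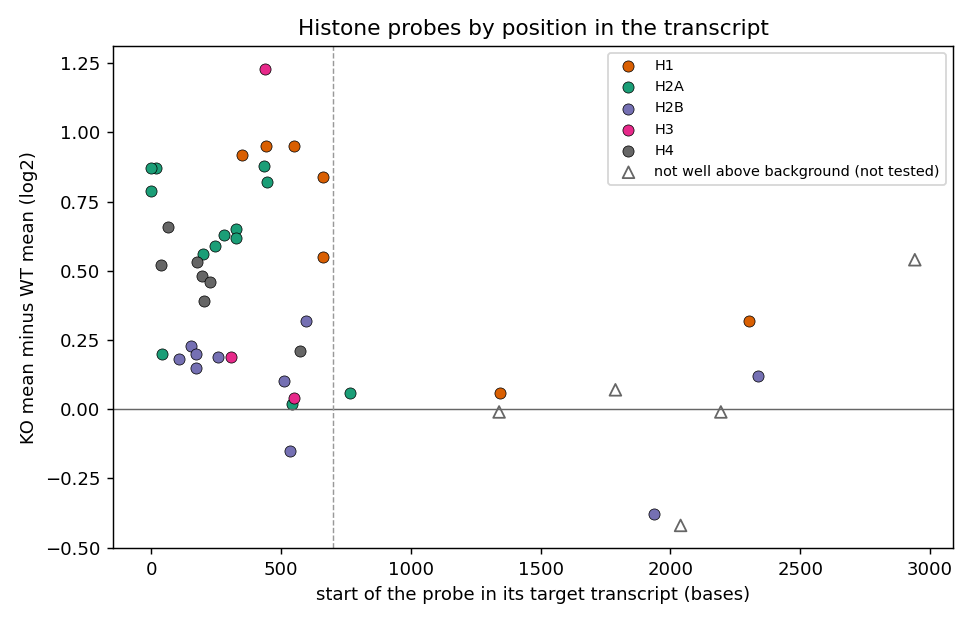
Difference between the KO and WT means (log2) of all 45 histone probes against the start of the probe in its target transcript in bases, coloured by class, with open triangles for the 5 probes not well above background and a dashed line at 700 bases. The differences above 0.4 among tested probes lie left of the line. There, H2B probes and those just past 500 bases sit lower, except the near probe of Hist1h1d, which sits high.

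By chromosome, the median difference was 0.54 for the 28 tested probes on chromosome 13, which carries the main cluster, 0.33 for the 6 on chromosome 3 and 0.12 for the 4 on chromosome 11, and the single tested probe on chromosome 6 gave 0.53. The classes are unevenly spread over the chromosomes, so these medians are not separate from those of the classes.

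Genes that make and handle histones had smaller median differences than the histones themselves, apart from those of DNA replication. The list of histone mRNA processing genes, which holds the stem-loop binding protein Slbp, the cell-cycle activator Npat and subunits of the U7 and cleavage machinery, had a median of 0.11 over 14 tested genes, with 4 above and 1 below without overlap (13.1% and 10.9% over all tested probes) and 0 called. Cstf2, a cleavage stimulation factor, read -2.09 and -1.80 in WT and -1.58 and -1.31 in KO, a difference of 0.50. Zfp473, a zinc finger protein of the U7 machinery, read -1.98 and -2.61 in WT and -2.76 and -2.85 in KO, a difference of -0.51. These 2 had the largest differences of the list and went in opposite directions, and Slbp itself differed by 0.26 (SE 0.20).

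The histone chaperones and their partners, 19 tested genes, had a median of 0.12, with 7 above and 2 below without overlap (against the same 13.1% and 10.9%) and 0 called. Asf1b, the proliferation-linked H3-H4 chaperone, read -0.08 and -0.56 in WT and 0.30 and 0.83 in KO, a difference of 0.89 (SE 0.33). Chaf1b, a subunit of the chromatin assembly factor that deposits histones on replicating DNA, read -0.22 and -0.38 in WT and 0.12 and 0.87 in KO, a difference of 0.80 (SE 0.35). Hira, which deposits H3.3 outside replication, was among those lower without overlap, at -0.49. Within number 2 the chaperone median was -0.01 and within number 3 it was 0.21, the former changing sign with a shift by the median (0.06).

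Replication-independent histones and variants, most of whose mRNAs are polyadenylated, had a median of 0.26 over 10 of 11 listed genes, as H2afy2 was not tested. All 10 had a higher mean in KO, 4 of them without overlap (2 after quantile normalization, against 13.1% and 12.5% of all tested probes), and 0 were called. Cenpa, the centromeric H3 variant, read 0.32 and -0.33 in WT and 0.96 and 0.53 in KO, a difference of 0.75 (SE 0.35). H2afj read 6.24 and 5.98 in WT and 6.45 and 6.70 in KO, a difference of 0.46 (SE 0.24). The list median was 0.37 within number 3, and within number 2 it was 0.11, or -0.19 after quantile normalization.

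The S phase genes had the highest median of these 4 lists. All 24 tested genes of 25 (Cdk2 was not tested) had a higher mean in KO, with a median of 0.54 and 16 without overlap (against 13.1%), and 0 were called. Ccne2, a cyclin of S phase entry, read -3.97 and -4.57 in WT and -2.90 and -3.24 in KO, a difference of 1.20 (SE 0.32). Tk1, thymidine kinase, read 0.53 and -0.03 in WT and 1.06 and 1.56 in KO, a difference of 1.06 (SE 0.34). Within number 3 all 24 were higher in KO, with a median of 0.95, and within number 2 it was 0.08 with 17 higher, values that quantile normalization left at 0.94 and 0.09. Histone and S phase medians were thus both higher within number 3 than within number 2, and the part of the S phase genes in the histone values was not tested.

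**Figure D4:**
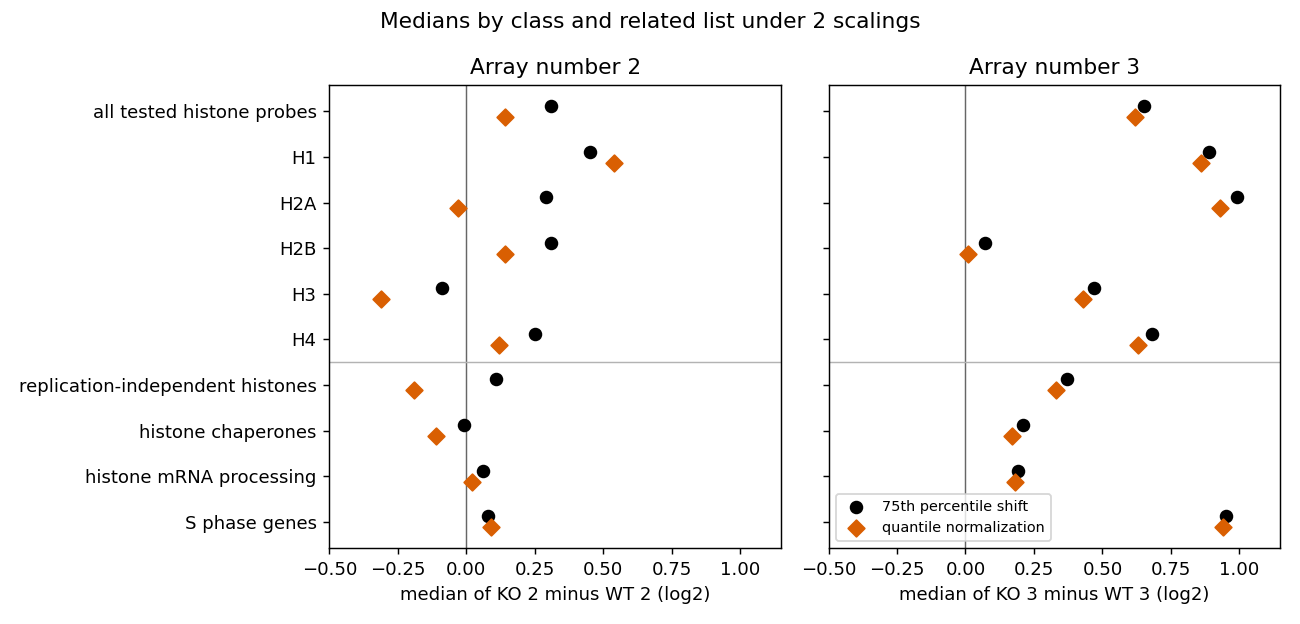
Median difference between KO and WT (log2) within array number 2 (left) and number 3 (right) for all tested histone probes, the 5 histone classes and the 4 related lists, after the 75th percentile shift (black circles) and after quantile normalization (orange diamonds). Within number 3 both scalings nearly coincide, whereas within number 2 the H2A median went from 0.29 to -0.03.

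Cell type markers differed between arrays as well. The mean level of 10 cardiomyocyte markers was 6.69 and 5.66 in WT and 7.70 and 4.83 in KO, so that KO 2 was the highest array and KO 3 the lowest. The 8 macrophage markers gave 3.58 and 4.20 in WT and 2.46 and 4.43 in KO, and the 5 neutrophil markers 0.36 and 0.71 against -2.27 and 0.79. The 4 T lymphocyte markers gave -1.93 and -2.34 against -4.19 and -2.47, and the 4 B lymphocyte markers -2.58 and -2.16 against -3.42 and -0.55. KO 2 was thus the lowest array for all of these immune lists, and KO 3 was the highest for macrophage, neutrophil and B lymphocyte markers.

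The 8 fibroblast markers gave 5.96 and 6.02 in WT and 5.12 and 5.89 in KO, with a lower KO mean at 8 of 8 and no overlap at 3, and the 6 endothelial markers 1.75 and 1.85 against 2.31 and 1.54. For 3 erythroid markers the means were 4.43 and 6.13 against 6.31 and 5.16, with a median difference of 1.89 within number 2 and -1.04 within number 3. Of all these markers, 0 were called. The B lymphocyte markers were higher in KO within number 3 at 4 of 4 genes and lower within number 2 at 4 of 4, and none of these lists had both KO arrays above both WT arrays at any gene. Both KO arrays were below both WT arrays at 3 of 4 T lymphocyte markers, all 4 of which had a lower mean in KO, and at 1 of 5 neutrophil markers, against 10.9% of all tested probes. The part of cell composition in the histone values was not tested.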

How the data were processed

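Total RNA was amplified and labelled with a one-colour kit and hybridised by the authors to 4 Agilent Whole Mouse Genome arrays. The authors deposited each array's spot intensity from Agilent Feature Extraction (10.7.3.1 per the file headers), already background-subtracted and detrended, and a table of log2 values normalized in GeneSpring, by a method not given in the sources used here. Between 99.90% and 99.96% of that table's values on an array were the quantile-normalized log2 intensity to within 0.01.

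Control spots and outlier-flagged spots (92 to 116 per array) were left out, and spots of 1 probe were averaged. The log2 processed intensity minus the array's 75th percentile was compared between KO and WT by lmFit and eBayes of limma 3.58.1 (R 4.3.3). Adjustment was Benjamini-Hochberg's over 28305 tested probes, and called means an adjusted p under 0.05 together with a fold change over 2. The fit was run on simulated arrays with planted changes larger than any histone difference seen here. Its power at the observed differences cannot be read from that. Precision is limited by having 2 arrays a group.

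Groups and array numbers came from the sample titles. The histone probes and gene lists were chosen with earlier results of these data known. Values on every array were given for Kdm5b, the 5 largest rises and falls without overlap, the brightest probe of each class, probes above background in 1 group only, and the 2 genes with the largest difference in each list, and no histone probe met the rule for falls or for 1 group only. Further members were named after their values were seen. For a listed gene with several probes, the tested probe with the highest mean was used. Probe positions are those of the files on mm9, and promoters are RefSeq's on GRCm38.p6. Alternatives were normexp with an offset of 50, other normalizations, other filters, the array number as a block, leaving out 1 array at a time, the methods' t-test and the authors' values. With 1 slide and 1 scan day neither could be a block. An item of 1 marker list is not reported here.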

Additional observations from a re-analysis of the deposited data

How the results depend on the processing

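The median difference of the histone probes stayed positive under every alternative run, at 0.33 after quantile normalization and in the authors' values, 0.43 with normexp and 0.39 to 0.68 with 1 array left out, the last without KO 2. With 1 array left out the medians were 0.58 to 1.0 for H1, 0.47 to 0.83 for H2A, 0.11 to 0.26 for H2B, -0.09 to 0.47 for H3 and 0.32 to 0.64 for H4, so that 1 array decided the sign for H3. The count of probes with both KO arrays above both WT arrays, 28, was 18 in the authors' values, and the median within number 2, 0.31, was 0.14 there and after quantile normalization. These settings for the count and for the medians within a number were chosen after seeing the data. No histone probe was called under any alternative with adjustment, and 1 was called by the methods' t-test without adjustment. The count over 2-fold, 1, was 0 with normexp and 0 with the strictest background filter, under which Hist1h3a is not tested, and 2 to 10 with 1 array left out. Hist1h1c, at 0.06, was -0.08 in the authors' values, -0.000134 with normexp, -0.08 after quantile normalization and -0.29 (without KO 2) to 0.41 with 1 array left out. Hist2h3c1, at 0.04, was -0.13 in the authors' values, -0.00795 with normexp, -0.13 after quantile normalization and -0.21 (without KO 3) to 0.30 with 1 array left out. The cause was not tested. The other named probes kept their direction but not their size. Without KO 3, Hist1h1d was 0.58, Hist1h1b 0.58 and Hist1h2ab 0.49, and after quantile normalization Hist1h2af was 0.34, Hist1h2bc 0.18 and Hist1h4f 0.17. Kdm5b was -1.46 to -0.53 with 1 array left out, the last without WT 2.

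The array numbers are shared by the groups, but the labels do not say that a number marks a shared animal or batch, and there are only 2 pairs. Deviations of same-numbered arrays from their group means correlated at 0.569 over 28305 tested probes and 0.415 over the 40 histone probes. With the number as a replicate block, 0 histone probes were called, as without it. Both groups hold the same array numbers, so the block cannot change a difference, and nothing is read from the equal medians. Dim probes limit the far probes most, since 5 of 10 were not well above background.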
